A study of Mus musculus with 4 samples.

Results

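The IL-6 and oncostatin M family was described here by 7 genes: the ligands Il6, Lif and Osm, the receptor chains Il6ra, Il6st and Osmr, and the inhibitor Socs3. These genes were chosen by name, with earlier results of these data known, as 7 of the 33696 features in the matrices. All 7 had unique molecular identifiers (UMIs) in all 4 libraries. Cytokines of this family bind a private chain, such as the IL-6 receptor encoded by Il6ra or the oncostatin M receptor encoded by Osmr, and then signal through the shared chain gp130, which Il6st encodes. Gp130 activates JAK kinases and the transcription factor STAT3, and STAT3 induces Socs3, whose product binds gp130 and JAK kinases and dampens the signal. In tumours the family is known for linking myeloid cells to carcinoma cells and fibroblasts, since oncostatin M comes largely from myeloid cells and its receptor is typical of epithelial and stromal cells.

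The cells came from subcutaneous tumours of the KPC pancreatic cancer line, which derives from mice with a Pdx1 promoter driving Cre. The hosts of all groups were male C57BL/6NHsd mice of 8 to 10 weeks, and live CD45+ cells were sorted 14 days after treatment began. There were 4 groups: untreated mice, mice given the STING agonist ADU-S100 by 1 injection into the tumour, mice given the agonist antibody anti-LTβR (clone 4H8, against the lymphotoxin-β receptor) by 4 intraperitoneal injections, and mice given both, called the combination. The untreated group is the only control group in the labels. For each group, 10 tumours were pooled before sorting, so that each group was 1 library here, no difference between groups had a replicate check, and treatment and library cannot be told apart. The study also describes another independent single-cell experiment, which was not used here. Values are therefore given without tests, and their intervals (95%, exact Poisson for levels, exact binomial for ratios and shares) cover counting error only. Those of levels and ratios take each UMI as an independent count, and so leave out variation between cells.

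Levels are given as CPM, the usual scaled counts, here the UMIs of a gene per 1e+06 UMIs of a class of cells in a library. Sets of 4 values are always in the order untreated, ADU-S100, anti-LTβR, combination. The deposited matrices held 8730 untreated, 15404 ADU-S100, 14634 anti-LTβR and 16322 combination cells with medians of 4712, 3187, 3730.5 and 2157.5 UMIs, of which 7524, 13444, 13223 and 14667 cells were kept, and any pair of libraries shared 34 to 83 barcodes. The 30 clusters of these cells were formed without the 7 genes and without the other genes of their pathway, and were named by markers. Each name below stands for a population that resembles that cell type ("neutrophil-like" and so on). The macrophage and monocyte class held 3518, 5563, 7247 and 8077 cells, all 12 of its markers were detected, and they summed to 15121 to 19361 CPM. The neutrophil class held 494, 5296, 970 and 1299 cells, with all 10 of its markers at a sum of 61780 to 87369 CPM. Neutrophils were thus 40.0% of the leukocytes with ADU-S100 and 6.70% to 9.01% in the other libraries. A keratin-positive cluster of 150, 219, 199 and 247 cells passed the CD45 sort and is called the carcinoma cluster, although it was mixed. It had UMIs of 7, 10, 6 and 8 of 12 carcinoma markers, Epcam at 0 to 2 UMIs, and all 8 fibroblast markers at a sum of 1138 to 2318 CPM.

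Among the kept cells, the family's transcripts came from few populations, and mostly from myeloid cells. The macrophage and monocyte class held 56.5% of the Il6 UMIs in the untreated library, 86.5% with ADU-S100, 84.1% with anti-LTβR and 75.1% in the combination. For Osm the class held 82.6%, 69.5%, 84.0% and 80.5%, and neutrophils held 8.83%, 27.6%, 9.21% and 11.4%. Osmr stood apart, as the carcinoma cluster held 95.3%, 87.4%, 91.4% and 84.7% of its UMIs. The ligand Osm and its private receptor chain thus lay almost entirely in different cells among those kept. The cells had been sorted for CD45, so these shares describe the kept cells and not the whole tumours.

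**Figure D1:**
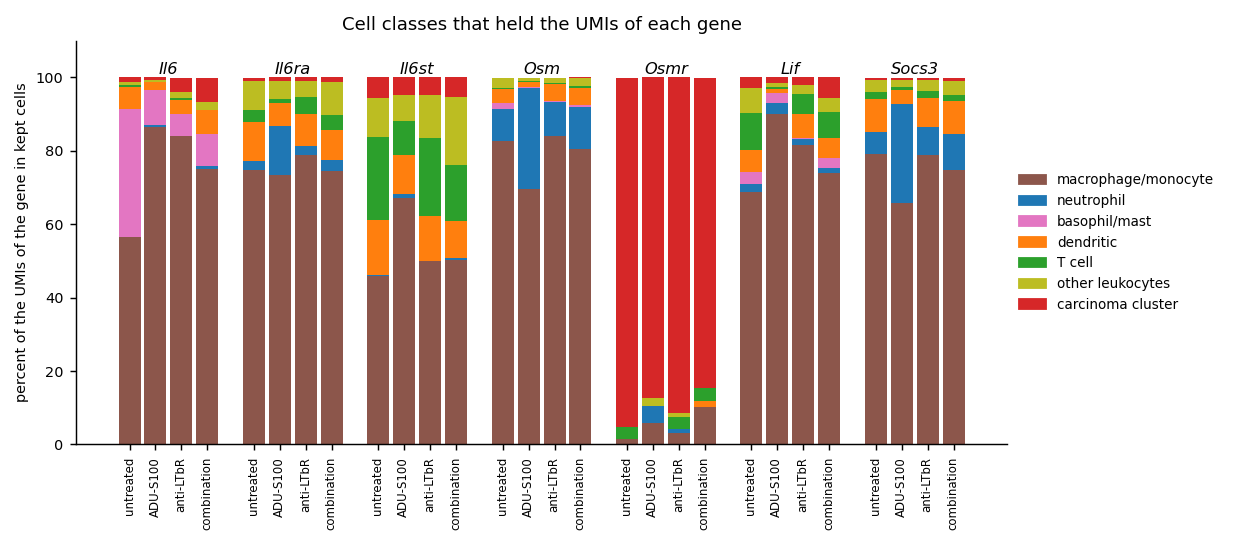
Share of the UMIs of each of the 7 genes (percent of all UMIs of the gene in kept cells) that came from each class of cells, with 1 bar per library. Myeloid classes fill most of the bars of Il6, Lif, Osm and Socs3, the carcinoma cluster fills 84.7% to 95.3% of Osmr, and the mast cell or basophil cluster takes 34.7% of Il6 in the untreated library.

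Il6 (ENSMUSG00000025746) encodes interleukin-6. Its promoter is printed because the letters of a kappa-B motif lie near its start. The sequence is RefSeq's for the GRCm38.p6 build, chr5:30012864-30013113 on the plus strand, which ends at the base before the annotated start, and capitals mark the motif, 44 bases before the start.

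Il6 promoter: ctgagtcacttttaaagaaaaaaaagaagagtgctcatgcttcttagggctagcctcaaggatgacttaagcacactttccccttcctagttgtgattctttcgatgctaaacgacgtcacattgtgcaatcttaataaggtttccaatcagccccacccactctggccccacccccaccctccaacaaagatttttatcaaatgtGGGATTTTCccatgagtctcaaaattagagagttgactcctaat

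The motif searched was GGGNNTTTC on either strand (GAAANNCCC when reversed), which 3.72% of 32851 promoter windows of 250 bases held, and among the 6 members with a window only that of Il6 held it. A match describes letters and not binding.

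Macrophages and monocytes held more Il6 in each treated library than in the untreated one. The level was 24.7 CPM (22.9 to 26.7) untreated, 112 CPM (109 to 115) with ADU-S100, 85.3 CPM (82.5 to 88.3) with anti-LTβR and 61.5 CPM (58.7 to 64.5) in the combination. The order from low to high was untreated, combination, anti-LTβR, ADU-S100. The 4 intervals do not overlap, but they take each UMI as independent and leave out variation between cells. The log2 ratios of these levels to the untreated one were 2.18 (2.07 to 2.30), 1.79 (1.67 to 1.91) and 1.31 (1.19 to 1.45), in the same order of libraries. The combination was lower than ADU-S100 alone by a log2 ratio of -0.87 (-0.95 to -0.79) and lower than anti-LTβR alone by -0.47 (-0.56 to -0.39).

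Few macrophages carried these transcripts. Il6 UMIs were found in 4.80%, 13.3%, 9.26% and 7.02% of the class, against 0.409%, 0.299%, 0.473% and 0.170% of T cells, which are not a usual source of this cytokine. The median depths were 7086, 7240, 4737 and 2813 UMIs in macrophages and 3265, 3480.5, 2835 and 1605.5 UMIs in T cells. Since depth differed, each macrophage was also thinned to 1000 UMIs, which kept 3394, 5318, 6801 and 7043 cells, and the shares were then 1.68%, 5.70%, 4.69% and 3.75%, in the same order as the levels. The expression was concentrated: 50% of the Il6 UMIs of the class lay in 16 of the untreated macrophages and in 89, 80 and 97 of those of the other libraries. The highest single cell held 47, 55, 59 and 32 UMIs. For comparison, 50% of the Osm UMIs lay in 9.47% to 10.6% of the macrophages, and the corresponding share for Il6 was 0.455% to 1.60%.

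The clusters of the class differed in Il6 more than the libraries did, and the libraries differed in their clusters. C1q-high macrophages were the largest cluster in the untreated library (1252 cells) and in the combination (1890 cells), whereas Cxcl10- and Thbs1-high macrophages, which were led by interferon-induced genes such as Cxcl10 and Cxcl11, were the largest with ADU-S100 and with anti-LTβR (1676 cells each). Il6 in the Cxcl10- and Thbs1-high cluster was 95.5 CPM untreated, 189 CPM with ADU-S100, 179 CPM with anti-LTβR and 185 CPM in the combination. In these cells the 3 treated libraries were nearly level, with the combination at a log2 ratio of -0.04 (-0.15 to 0.07) to ADU-S100 and 0.04 (-0.08 to 0.16) to anti-LTβR. In C1q-high macrophages, which express complement genes, Il6 was only 5.53, 12.4, 23.5 and 15.0 CPM. Gpnmb- and Mmp12-high macrophages, led also by the heat shock genes Hspa1a and Hspa1b, had 35.3, 194, 75.4 and 45.3 CPM. This was the cluster where ADU-S100 and the combination differed most among those with at least 50 cells in both, at a log2 ratio of -2.10 (-2.39 to -1.82).

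Chil3- and Vcan-high monocytes had Il6 at 25.9, 39.8, 77.6 and 60.8 CPM, highest in the 2 libraries with anti-LTβR. Plcb1-high cells, a cluster with too few subset markers for a name, had 66.1, 154, 75 and 65.6 CPM, so that the combination lay at the untreated level there. Retnla-high cells reached 77.7, 201, 225 and 252 CPM, but held only 32 untreated and 13 ADU-S100 cells. In macrophages high in Cd163, the haemoglobin scavenger receptor, Il6 was 1.87, 3.75, 12.2 and 13 CPM, on 3 to 42 UMIs a library. When the clusters' shares of the class were held at those of the untreated library, the level was 58.4 CPM with ADU-S100, 59.4 CPM with anti-LTβR and 50.2 CPM in the combination. The log2 ratios to the untreated library then fell to 1.24, 1.26 and 1.02, so the 3 treated libraries became nearly equal and each remained above the untreated one.

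**Figure D2:**
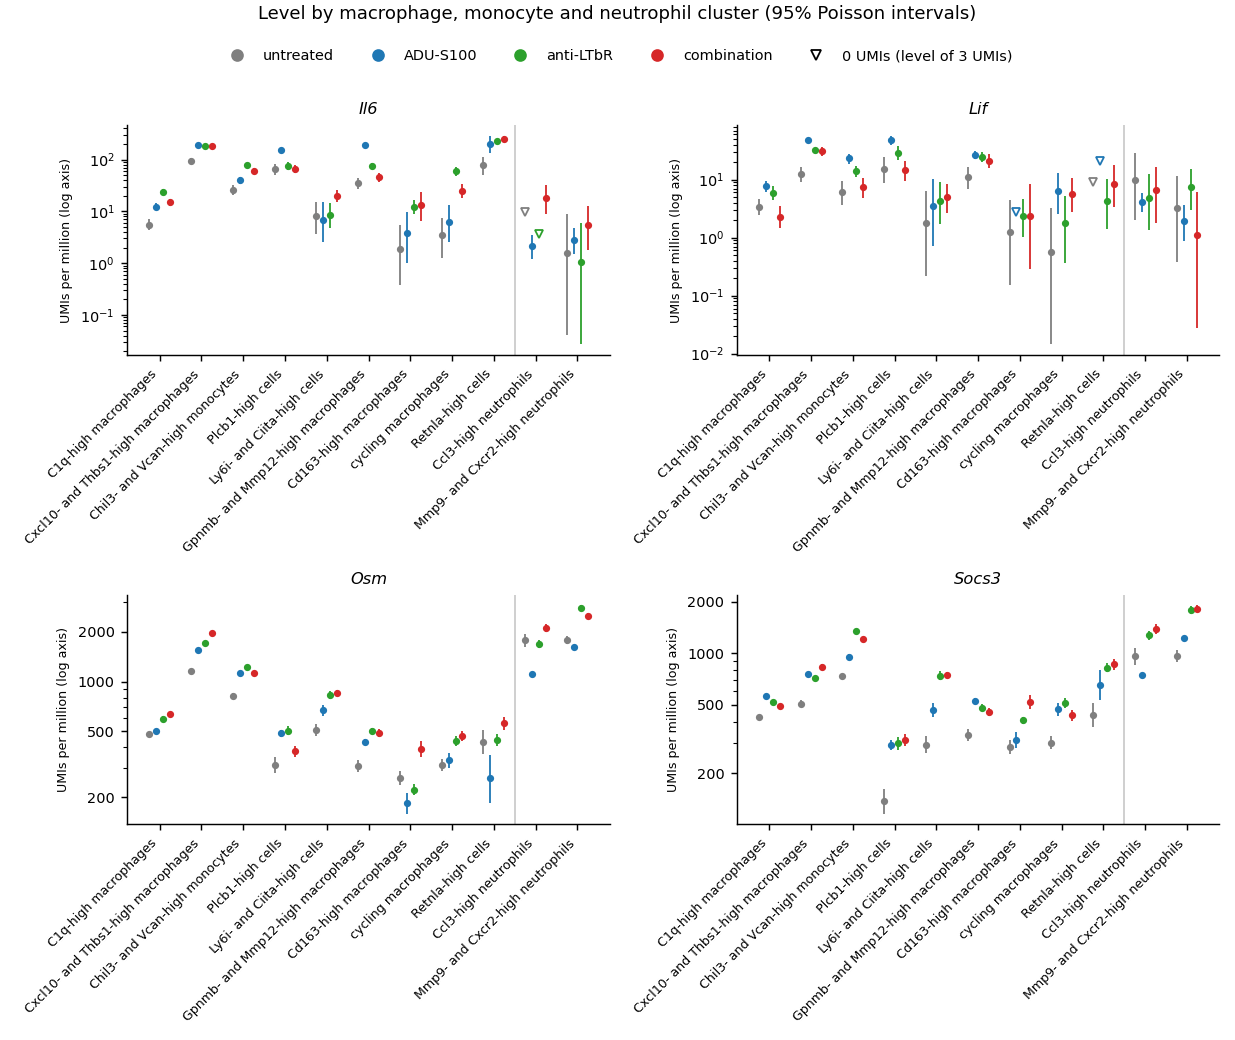
Levels of Il6, Lif, Osm and Socs3 (CPM, log axis) in each macrophage, monocyte and neutrophil cluster, with 1 point per library exact Poisson 95% intervals as bars, and open triangles at the level of 3 UMIs where a library had 0. Il6 in the Cxcl10- and Thbs1-high cluster sits at 95.5 CPM untreated and at 179 to 189 CPM in the 3 treated libraries, whereas in the Gpnmb- and Mmp12-high cluster the ADU-S100 point, at 194 CPM, stands above the others.

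A cluster of mast cell or basophil type held the highest level of Il6 of any class. It comprised 29, 18, 11 and 20 cells, or 0.385%, 0.134%, 0.0832% and 0.136% of the kept cells, and held 34.7%, 9.57%, 5.88% and 8.78% of the Il6 UMIs. Its leading genes were those of basophils, among them Il4, Mcpt8 and Gata2. The mast cell protease transcript Mcpt4 had 227 UMIs in 1 ADU-S100 cell and none elsewhere in the cluster. Il6 was 7266 CPM (6584 to 8000) untreated, 10933 CPM (10028 to 11898) with ADU-S100, 11496 CPM (10067 to 13071) with anti-LTβR and 8672 CPM (7526 to 9944) in the combination. Between 63.6% and 94.4% of its cells had an Il6 UMI, at median depths of 1154.5 to 2359.5 UMIs, and the highest cell held 34 to 146 of them. These cells also held Osm, at 4973, 2952, 5674 and 7361 CPM, lowest with ADU-S100. Of the receptor chains they had next to nothing: Il6st had 1 UMI in all, Il6ra had 2 and Osmr had 0, and a count of 0 allowed a level of up to 52.5 CPM untreated and 148 CPM with anti-LTβR.

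Dendritic cells held less Il6. Mature dendritic cells, which carry Fscn1 and Ccl22, had 31.7, 81.4, 61.1 and 99.5 CPM on 29 to 58 UMIs, and type 2 conventional dendritic cells had 15.9, 27.9, 23.4 and 37.7 CPM. In both, the combination was the highest library, unlike in macrophages, but its log2 ratios to ADU-S100, 0.29 (-0.37 to 0.93) and 0.43 (-0.01 to 0.89), were within the counting error, whereas those to anti-LTβR, 0.71 (0.06 to 1.33) and 0.68 (0.26 to 1.11), were not. Neutrophils had almost none, at 1, 29, 1 and 16 UMIs, and 6 of the 16 in the combination lay in 1 cell.

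Lif (ENSMUSG00000034394) encodes leukaemia inhibitory factor, which signals through gp130 paired with its own receptor chain. In macrophages and monocytes it followed the order of Il6. Its level was 5.49 CPM (4.64 to 6.44) untreated, 28.3 CPM (26.7 to 29.9) with ADU-S100, 16.1 CPM (14.9 to 17.4) with anti-LTβR and 10.6 CPM (9.40 to 11.8) in the combination. The log2 ratios to the untreated library were 2.36 (2.12 to 2.62), 1.55 (1.30 to 1.82) and 0.94 (0.66 to 1.24), and the combination stood at -1.42 (-1.61 to -1.24) against ADU-S100. In the Cxcl10- and Thbs1-high cluster the levels were 12.5, 47.3, 31.8 and 30.8 CPM, where the combination again nearly matched anti-LTβR and remained below ADU-S100, by a log2 ratio of -0.61 (-0.89 to -0.35). The log2 ratio of the combination to the untreated library was 1.29 (0.81 to 1.83) in that cluster and 0.90 (0.18 to 1.71) in Gpnmb- and Mmp12-high macrophages. It was 0.28 (-0.59 to 1.20) in Chil3- and Vcan-high monocytes and -0.11 (-1.03 to 0.89) in Plcb1-high cells. In C1q-high macrophages it was -0.54 (-1.37 to 0.22), on 22 UMIs against 43 untreated. With the untreated cluster shares, the log2 ratios of the class were 1.61, 1.12 and 0.69. Outside macrophages, the mast cell or basophil cluster had Lif at 123 CPM untreated, 794 CPM with ADU-S100 and 508 CPM in the combination, on 7, 39 and 12 UMIs. The carcinoma cluster had 4.46, 15.4, 8.86 and 14.4 CPM, on 6, 21, 16 and 23 UMIs. Lif was also found in Cd4- and Cd40lg-high T cells at 17.9, 14.9, 21.8 and 37.8 CPM, on 18, 8, 31 and 22 UMIs, and in the other T cell clusters at 3.36 CPM or less.

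Osm (ENSMUSG00000058755) encodes oncostatin M. Macrophages and monocytes held it at 569 CPM (560 to 578) untreated, 924 CPM (915 to 933) with ADU-S100, 933 CPM (924 to 943) with anti-LTβR and 879 CPM (868 to 890) in the combination. Unlike Il6 and Lif, Osm thus stood at about the same level in the 3 treated libraries, with log2 ratios to the untreated library of 0.70 (0.67 to 0.73), 0.71 (0.69 to 0.74) and 0.63 (0.60 to 0.66). After thinning to 1000 UMIs, 31.7%, 42.0%, 41.5% and 41.7% of macrophages had an Osm UMI, against 1.02%, 3.43%, 2.05% and 2.41% of T cells. The Cxcl10- and Thbs1-high cluster was the highest of the macrophage clusters in all 4 libraries, at 1157, 1546, 1699 and 1959 CPM, here with the combination on top. C1q-high macrophages had 484, 500, 598 and 634 CPM, with ADU-S100 at the untreated level (log2 ratio 0.05, -0.01 to 0.10). With the cluster shares of the untreated library, the log2 ratios of the class were 0.26, 0.46 and 0.54, against 0.70, 0.71 and 0.63 as found.

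In neutrophils Osm took another order. The level was 1778 CPM (1693 to 1865) untreated, 1304 CPM (1284 to 1324) with ADU-S100, 2274 CPM (2204 to 2346) with anti-LTβR and 2329 CPM (2253 to 2407) in the combination. ADU-S100 was the lowest library, at a log2 ratio of -0.45 (-0.52 to -0.37) to the untreated one, and anti-LTβR and the combination were higher by 0.36 (0.27 to 0.44) and 0.39 (0.31 to 0.47). The combination exceeded ADU-S100 by 0.84 (0.78 to 0.89). The neutrophils of the libraries were not the same mixture. Ccl3-high neutrophils, in which Hspa1a and Hspa1b also led, were 25.8% of the leukocytes with ADU-S100 and 2.39%, 3.86% and 3.74% in the untreated library, with anti-LTβR and in the combination. They had Osm at 1770, 1114, 1680 and 2102 CPM, whereas Mmp9- and Cxcr2-high neutrophils, the mature type, had 1782, 1615, 2789 and 2481 CPM. ADU-S100 was the lowest library within each of these clusters. The median gene of the neutrophil class also shifted, by a log2 ratio of -0.25 with ADU-S100, and with scaling by the median ratio over genes Osm there stood at -0.07, 0.60 and 0.55.

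Over all leukocytes, Osm was 431, 863, 705 and 694 CPM. The log2 ratio of 1.00 for ADU-S100 was the largest of the 3, although Osm per UMI was lowest in its neutrophils. With each class held at its untreated share of UMIs, the ratios were 0.59, 0.68 and 0.63, and ADU-S100 no longer stood above the others. For Il6 the same step left the order as it was, with log2 ratios of 1.63, 1.19 and 0.84 as found and 1.72, 1.44 and 1.04 at untreated shares. More cells of a type and more RNA per cell cannot be told apart in such sums, which is why the values within classes are given first.

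**Figure D3:**
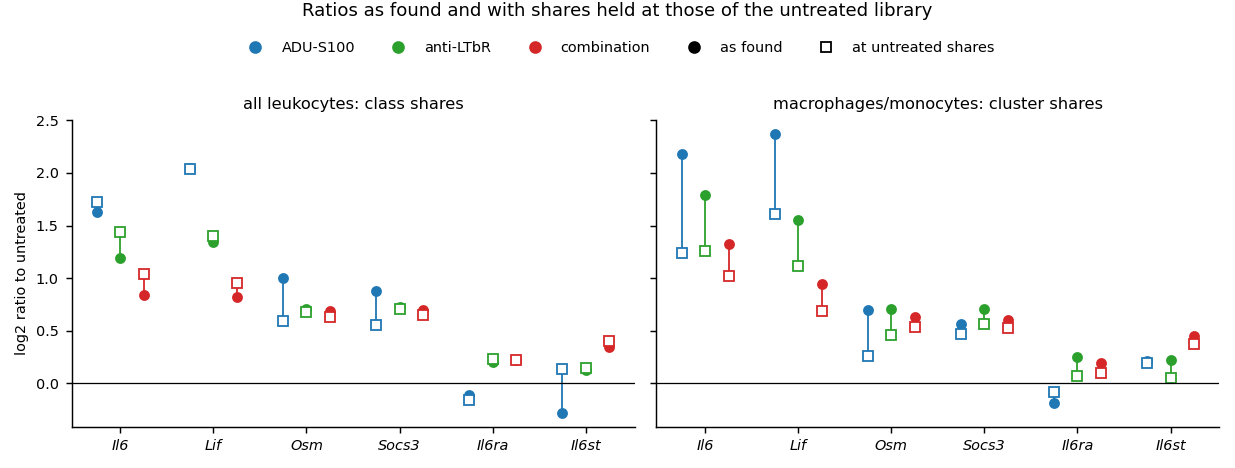
Log2 ratio of each treated library to the untreated library for 6 members, as found (filled circles) and with shares held at those of the untreated library (open squares), over all leukocytes (class shares) and within macrophages and monocytes (cluster shares). The ADU-S100 value of Osm over all leukocytes falls from 1.00 to 0.59, and that of Il6 in macrophages from 2.18 to 1.24.

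Osm was also held by type 2 conventional dendritic cells, at 208, 238, 461 and 466 CPM, where the libraries with anti-LTβR were higher by log2 ratios of 1.15 (1.00 to 1.29) and 1.16 (1.02 to 1.31). Plasmacytoid dendritic cells had 69.7, 218, 299 and 198 CPM. In T cells Osm was 9.66, 33.5, 29.4 and 41.0 CPM, or 1.70%, 3.63%, 3.15% and 4.66% of the macrophage level. The lysozyme transcript Lyz2, which T cells do not make, stood in them at 1.29%, 1.18%, 2.27% and 4.35% of its macrophage level. Osm had the higher share in 4 of 4 libraries, with the widest gap with ADU-S100. In T cells the neutrophil transcripts S100a8 and S100a9 were highest with ADU-S100, at 2.11, 169, 2.07 and 18.3 CPM for S100a8 and 1.40, 265, 4.43 and 25.9 CPM for S100a9. With anti-LTβR, S100a8 stayed near its untreated level, unlike Osm. The log2 ratios of Osm in T cells to the untreated library were 1.79, 1.60 and 2.08. The anti-LTβR value fell to 0.68 without doublet removal, and with each cell classed by its own markers it was 0.39 and that of the combination 0.82. Foxp3-high T cells had more, at 15.1, 63.7, 137 and 87.4 CPM on 12, 17, 73 and 20 UMIs, of which 2, 5, 20 and 6 lay in 1 cell. Cd8a- and Pdcd1-high T cells had 6.27, 22.5, 11.9 and 58.9 CPM, and 18 of the 59 UMIs in the combination lay in 1 cell. Whether T cells made any of this Osm was not tested. NK cells had 19.5 to 47.9 CPM.

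Macrophages with an Il6 UMI held Osm more often than those without. At 1000 UMIs a cell, Osm was found in 73.7% of untreated macrophages with Il6 and in 31.0% of those without it. The corresponding shares were 58.4% and 41.1% with ADU-S100, 67.1% and 40.3% with anti-LTβR, and 61.0% and 40.9% in the combination. Within the Cxcl10- and Thbs1-high cluster the order held in all 4 libraries, with 76.5% to 82.4% against 50.8% to 65.6%. Cells of 1 library are not replicates, so these shares describe the libraries.

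Il6ra (ENSMUSG00000027947) encodes the chain that binds interleukin-6, and macrophages and monocytes held 73.3% to 78.8% of its UMIs. The level there was 124 CPM (120 to 128) untreated, 109 CPM (106 to 112) with ADU-S100, 148 CPM (144 to 152) with anti-LTβR and 142 CPM (137 to 146) in the combination. It differed little between libraries, with log2 ratios of -0.19 (-0.25 to -0.12), 0.25 (0.19 to 0.32) and 0.19 (0.12 to 0.26), and with median-ratio scaling the ADU-S100 value turned to 0.01. It was high in Plcb1-high cells (223, 196, 275 and 258 CPM), in Chil3- and Vcan-high monocytes (228, 190, 238 and 223 CPM) and in Cd163-high macrophages (197, 241, 241 and 239 CPM). It was lowest in Gpnmb- and Mmp12-high macrophages (72.1, 47.5, 52.3 and 60.8 CPM). Neutrophils had 117, 71.3, 109 and 115 CPM, lowest with ADU-S100.

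In T cells Il6ra was higher in the 2 libraries with anti-LTβR. It was 24.8 CPM (20.8 to 29.2) untreated, 27.4 CPM (21.5 to 34.5) with ADU-S100, 49.0 CPM (43.9 to 54.6) with anti-LTβR and 64.8 CPM (56.6 to 73.9) in the combination, with log2 ratios of 0.15 (-0.28 to 0.57), 0.98 (0.70 to 1.28) and 1.39 (1.08 to 1.70). With each cell weighted equally, the combination ratio was 0.89. The difference was widest in the Tcf7- and Lef1-high cluster, which carries transcription factors of naive and memory T cells, with 26.3 CPM untreated, 63.2 CPM with anti-LTβR and 110 CPM in the combination. The cluster held 337 of 1467, 291 of 670, 978 of 2113 and 851 of 1760 T cells, so that its share differed too. Its Il6ra UMIs numbered 30, 22, 188 and 164, and the ratio of ADU-S100 to untreated was -0.38 (-1.26 to 0.45). There the combination stood at a log2 ratio of 2.05 (1.50 to 2.68) to the untreated library and 2.43 (1.81 to 3.17) to ADU-S100. Cd4- and Cd40lg-high T cells had 73.8, 52.1, 77.4 and 72.3 CPM, so that in them the libraries were close. Foxp3-high T cells had 36.6, 71.2, 54.3 and 39.3 CPM, on 29, 19, 29 and 9 UMIs. Cd8a- and Pdcd1-high T cells, which carry the inhibitory receptor PD-1, had 2.09, 4.82, 2.38 and 5.99 CPM, on 3 to 6 UMIs a library.

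Il6st (ENSMUSG00000021756) encodes gp130. In T cells, macrophages and monocytes, and the carcinoma cluster, its levels varied less between libraries than those of the ligands. T cells had 108, 122, 131 and 157 CPM, macrophages and monocytes had 45.6, 52.6, 53 and 62.2 CPM, and the carcinoma cluster had 115, 123, 110 and 117 CPM. The combination was the highest library in T cells, at a log2 ratio of 0.54 (0.37 to 0.71), and in macrophages, at 0.45 (0.34 to 0.55). In the carcinoma cluster the ratios were 0.09 (-0.23 to 0.42), -0.07 (-0.38 to 0.24) and 0.02 (-0.29 to 0.34). Foxp3-high T cells, the regulatory type, had 212, 165, 193 and 188 CPM and Tcf7- and Lef1-high T cells 179, 180, 199 and 237 CPM. Both were above Cd8a- and Pdcd1-high T cells, at 49.4, 38.5, 47.1 and 45.9 CPM, in 4 of 4 libraries. Neutrophils had 5, 37, 5 and 20 Il6st UMIs, or 2.85 to 13.2 CPM, although they held Il6ra at 71.3 to 117 CPM. Over all leukocytes the ADU-S100 ratio of Il6st was -0.28 and turned to 0.14 when the class shares were held at those of the untreated library.

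**Figure D4:**
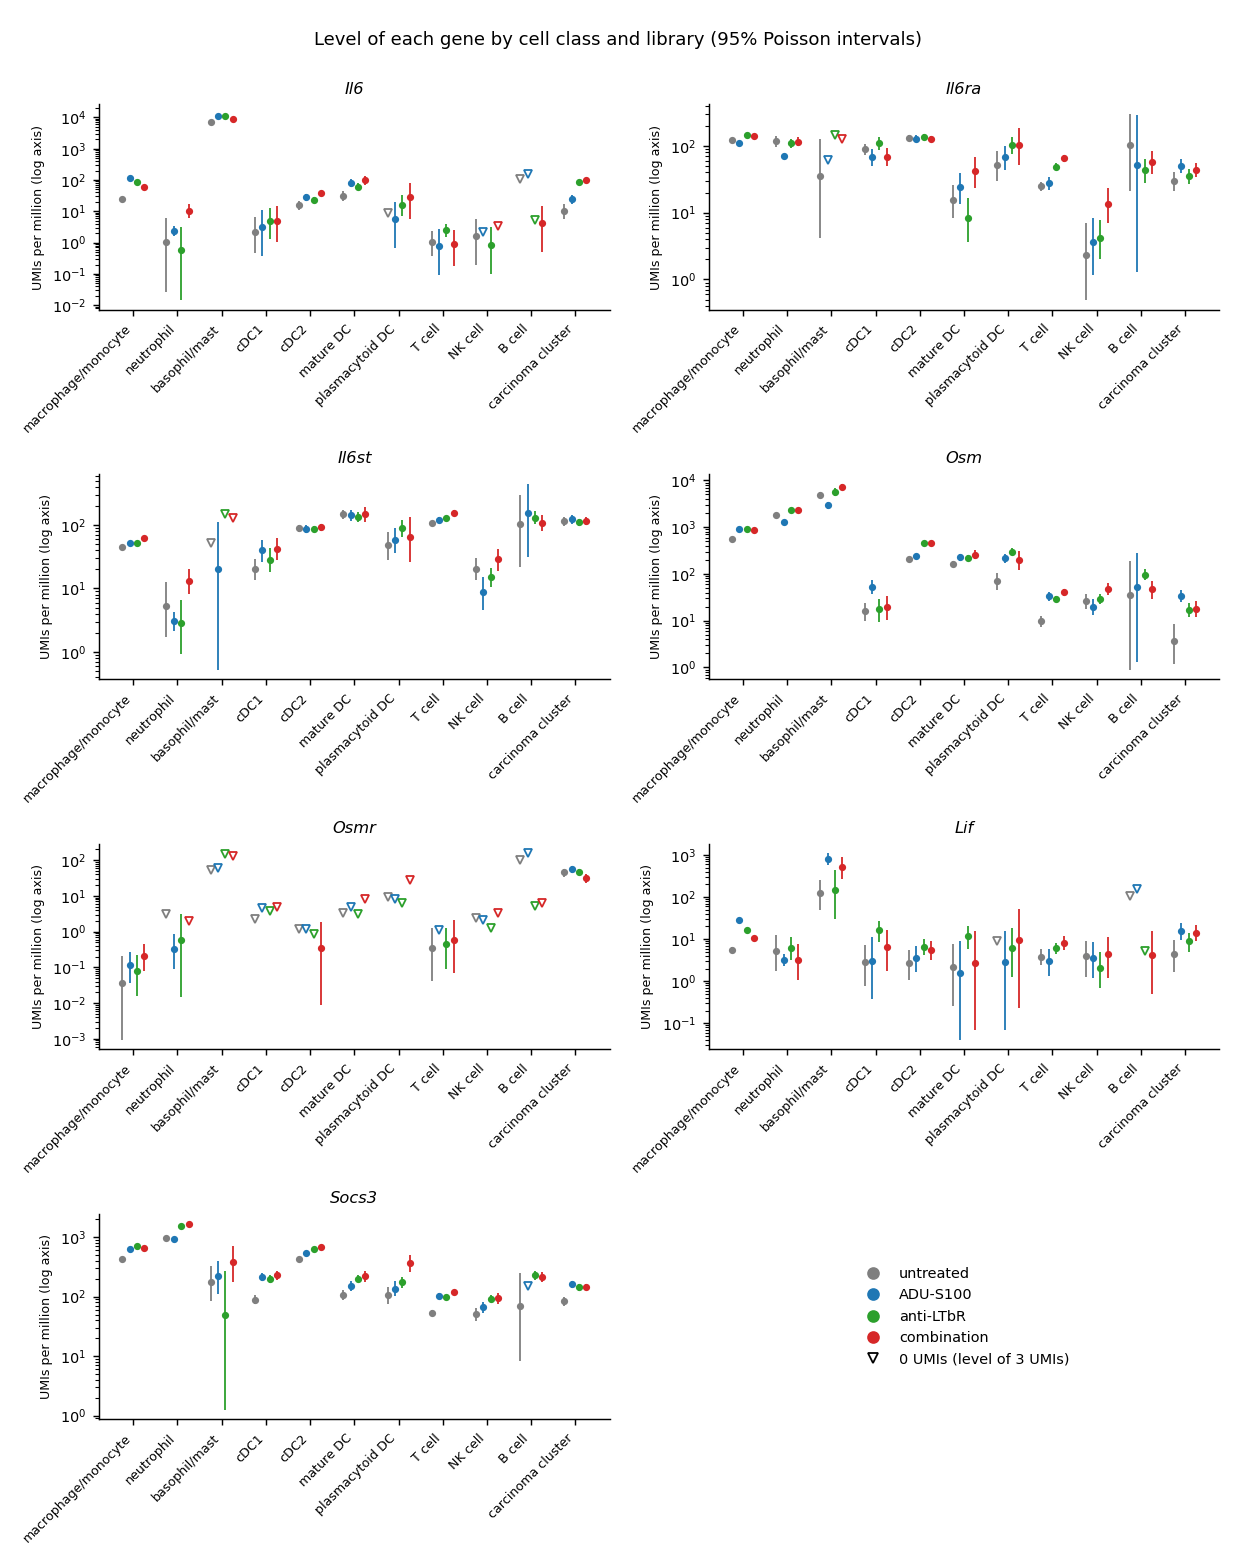
Level of each member (CPM, log axis) in the classes of cells, with 1 point per library, exact Poisson 95% intervals as bars, and open triangles at the level of 3 UMIs where a library had 0. Osmr is at 31.4 to 55.9 CPM in the carcinoma cluster and at most 0.211 CPM in macrophages, Il6st is at 2.85 to 13.2 CPM in neutrophils, and Il6 is highest in the mast cell or basophil cluster at 7266 to 11496 CPM.

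Osmr (ENSMUSG00000022146) encodes the private chain of the oncostatin M receptor. Leukocytes had 3, 11, 8 and 9 Osmr UMIs in all, and NK cells, mature dendritic cells and the mast cell or basophil cluster had none in any library. In the carcinoma cluster it was 45.3 CPM (34.7 to 58.2) untreated, 55.9 CPM (44.0 to 69.9) with ADU-S100, 47.1 CPM (37.6 to 58.2) with anti-LTβR and 31.4 CPM (23.3 to 41.4) in the combination, on 61, 76, 85 and 50 UMIs. The ratios to the untreated library were 0.30 (-0.20 to 0.81), 0.05 (-0.44 to 0.55) and -0.53 (-1.10 to 0.03), so that no difference from the untreated library was detectable at this depth. The combination was below ADU-S100 by a log2 ratio of -0.83 (-1.38 to -0.30) and below anti-LTβR by -0.58 (-1.12 to -0.06). Part of the cluster carried fibroblast markers. In the 16, 9, 10 and 7 cells with at least 3 fibroblast markers, Osmr was 205, 262, 155 and 55.5 CPM, and in the 110, 140, 148 and 190 cells with a carcinoma marker and fewer fibroblast markers it was 22.8, 34.3, 34.3 and 31.8 CPM. In these carcinoma-marker cells the combination was not below the untreated library, and its log2 ratio to either single treatment was -0.11. The other 24, 70, 41 and 50 cells had no carcinoma marker and fewer than 3 fibroblast markers. Osmr in them was 42.6 CPM untreated, 79.8 CPM with ADU-S100 and 19.6 CPM in the combination, on 4, 18 and 3 UMIs. With each cell classed by its own markers and not by its cluster, the ADU-S100 ratio was -1.48.

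Many Osmr UMIs lay in barcodes that the limit of 5000 genes removed. There were 498, 337, 190 and 48 such barcodes, with 104, 116, 65 and 27 Osmr UMIs, more than the whole carcinoma cluster held in the untreated and ADU-S100 libraries. Those with at least 3 carcinoma markers numbered 113, 103, 70 and 22, and Osmr in them was 20.6, 27.6, 26.2 and 41.7 CPM, with a UMI in 30.1%, 41.7%, 38.6% and 54.5% of them. Their Krt8, a keratin of epithelial cells, was 587 to 670 CPM, and Lyz2 was 47.5, 120, 48.5 and 273 CPM. Whether they were single carcinoma cells or joined with a leukocyte was not tested. These barcodes and the carcinoma-marker cells of the cluster gave Osmr at a like level of 20.6 to 41.7 CPM.

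In the carcinoma cluster Il6 was 10.4, 24.3, 86.4 and 98.6 CPM on 14, 33, 156 and 157 UMIs, with log2 ratios of 1.19 (0.28 to 2.24), 3.01 (2.26 to 3.96) and 3.20 (2.46 to 4.15). A few cells held most of these UMIs. With ADU-S100, 12 and 10 of the 33 UMIs lay in a pair of cells with 7 and 5 UMIs of Hdc, a basophil and mast cell transcript, 5 each of Ptprc, the transcript of CD45, and no carcinoma marker. With anti-LTβR, 68 of the 156 UMIs lay in 1 cell that had 91 UMIs of Hdc and no carcinoma marker. Another 31 and 20 lay in cells with 5 and 3 carcinoma markers and no Ptprc. In the combination the highest cells held 36, 35, 18 and 15 UMIs, and these 4 had no UMI of Ptprc or Hdc and 0, 1, 4 and 0 carcinoma markers. In the cells with a carcinoma marker and at most 2 fibroblast markers, Il6 was 3.65, 7.61, 47.6 and 64.3 CPM on 4, 8, 68 and 89 UMIs. The barcodes above the gene limit with at least 3 carcinoma markers gave another order, at 3.30, 49.1, 9.26 and 22.6 CPM, and with each cell classed by its own markers the combination ratio was only 0.35. The order of the libraries for Il6 in carcinoma cells thus depended on which cells were counted. Osm in the cluster was 0.653%, 3.74%, 1.84% and 2.07% of the macrophage level on 5, 47, 31 and 29 UMIs, and Lyz2 was 0.441%, 2.66%, 0.745% and 1.09% of it, and whether these cells made any Osm was not tested. The 10 neutrophil markers summed in the cluster to 188, 1230, 295 and 461 CPM, with S100a8 at 0, 307, 16.6 and 30.2 CPM, and their part in Osm was not tested either. The log2 ratio of Osm there with anti-LTβR, 2.09, was 0.22 without the cell that held most Osm in each library.

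Socs3 (ENSMUSG00000053113) encodes the inhibitor that STAT3 induces. Its promoter is shown because it holds the letters of a STAT motif, which capitals mark, 154 bases before the start. It is RefSeq's for GRCm38.p6, chr11:117969367-117969616 on the minus strand.

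Socs3 promoter: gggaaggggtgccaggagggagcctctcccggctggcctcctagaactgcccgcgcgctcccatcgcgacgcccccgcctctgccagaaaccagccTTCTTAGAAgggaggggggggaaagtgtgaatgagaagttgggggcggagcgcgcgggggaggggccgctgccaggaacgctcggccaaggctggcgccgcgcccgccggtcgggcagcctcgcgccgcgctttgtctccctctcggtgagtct

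The motif TTCNNNGAA, which reads the same on both strands, was in 7.02% of the 32851 windows, and among the 6 members with a window only that of Socs3 held it.

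Socs3 was higher in treated macrophages and monocytes, at 435 CPM (427 to 443) untreated, 643 CPM (635 to 650) with ADU-S100, 710 CPM (701 to 718) with anti-LTβR and 660 CPM (650 to 669) in the combination. The log2 ratios were 0.56 (0.53 to 0.59), 0.71 (0.67 to 0.74) and 0.60 (0.57 to 0.63), and 0.47, 0.56 and 0.53 with the untreated cluster shares. It was highest in Chil3- and Vcan-high monocytes, at 733, 956, 1356 and 1205 CPM, and not in the Il6-rich Cxcl10- and Thbs1-high cluster, at 510, 759, 717 and 836 CPM. Ly6i- and Ciita-high cells had 294, 467, 742 and 751 CPM, the widest difference among the macrophage clusters for the libraries with anti-LTβR, here by log2 ratios of 1.33 (1.16 to 1.51) with anti-LTβR and 1.35 (1.18 to 1.52) in the combination. In neutrophils Socs3 was 964, 932, 1550 and 1649 CPM, which set the libraries with anti-LTβR apart, by log2 ratios of 0.68 (0.58 to 0.80) and 0.77 (0.66 to 0.89), from the other pair. The ADU-S100 ratio there was -0.05 (-0.15 to 0.05), or 0.32 with median-ratio scaling. Both neutrophil clusters were highest in the combination and next with anti-LTβR. Neutrophils with an Osm UMI also held Socs3 in 48.7%, 57.0%, 71.0% and 68.6% of cells at 1000 UMIs, and those without in 47.5%, 38.2%, 54.5% and 55.9%.

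In T cells Socs3 was 52.3, 102, 99.5 and 119 CPM, or 12% to 18% of the macrophage level, whereas Lyz2 in T cells stood at 1.18% to 4.35% of its own. The log2 ratios were 0.96 (0.72 to 1.21), 0.93 (0.73 to 1.13) and 1.18 (0.96 to 1.40). The carcinoma cluster had 83.2, 163, 143 and 146 CPM, with ratios of 0.97 (0.64 to 1.31), 0.78 (0.45 to 1.11) and 0.80 (0.48 to 1.15). Type 2 conventional dendritic cells had 426, 550, 638 and 674 CPM. In each of these classes every treated library was above the untreated one, as in macrophages. Digestion of the tumours can itself induce early response genes, and 11 of these had a median log2 ratio of 0.45, 0.44 and 0.44 in macrophages, -0.19, -0.09 and -0.04 in neutrophils, 0.91, 0.62 and 0.40 in T cells, and 0.48, 0.35 and 0.43 in the carcinoma cluster. Of these, Hspa1a and Hspa1b were past 2-fold higher in neutrophils in each treated library, at log2 ratios of 1.04 to 2.03. In the carcinoma cluster Hspa1a stood at 2.31, 1.40 and 2.21 and Hspa1b at 1.55, 0.87 and 1.51, and in macrophages they were 1.10 and 1.01 with anti-LTβR. In T cells with ADU-S100, Fos, Fosb, Jun and Atf3 were past 2-fold higher, at 1.03, 1.52, 1.02 and 1.03. So were Fos with anti-LTβR (1.03) and Jun in the combination (1.02). The part of these early response genes in the values of Socs3 and Il6 was not tested.

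In the 4 classes counted here, the members that differed from the untreated library by at least 2-fold were all higher in the treated one. Lower values were found elsewhere, such as Il6st in NK cells with ADU-S100, at a log2 ratio of -1.21 (-2.36 to -0.20) on 12 and 26 UMIs, and Il6ra in B cells, on only 3 UMIs in the untreated library. A member was counted with at least 20 UMIs over the pair of libraries, and the share of all genes past 2-fold, given beside each count, was taken over genes with at least 200 UMIs. The members were chosen with earlier results of these data known, so the counts do not test the family against other genes. In macrophages and monocytes, 2 of 6 members (Il6 and Lif) were past 2-fold with ADU-S100, where 4.96% of genes were. The count was 2 of 6 (Il6 and Lif) with anti-LTβR, against 1.44% of genes, and 1 of 6 (Il6) in the combination, against 1.61%. In neutrophils, 0 of 6 were past it with ADU-S100 (6.58% of genes), 0 of 3 with anti-LTβR (2.45%) and 1 of 4 in the combination (1.42%), which was Il6st on 5 and 20 UMIs. In T cells the counts were 1 of 5 (1.47%), 2 of 6 (1.49%) and 4 of 5 (1.65%), each with Osm among them, whose source there was not tested. In the carcinoma cluster they were 3 of 7 (2.93%), 2 of 7 (1.36%) and 3 of 7 (2.43%), each with Il6 and Osm among them. Outside macrophages, most of these members lay under the floor of 200 UMIs used for all genes. At that floor the counts were the same in macrophages, 0 of 3 in neutrophils in each comparison, 0 of 3, 1 of 4 and 2 of 3 in T cells, and 0 of 2 in the carcinoma cluster in each comparison. The median member stood at a log2 ratio of 0.63, 0.71 and 0.61 in macrophages, where the median of all genes was -0.21, -0.04 and -0.09, and at -0.58, 0.36 and 0.58 in neutrophils, where it was -0.25, -0.06 and -0.05.

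**Figure D5:**
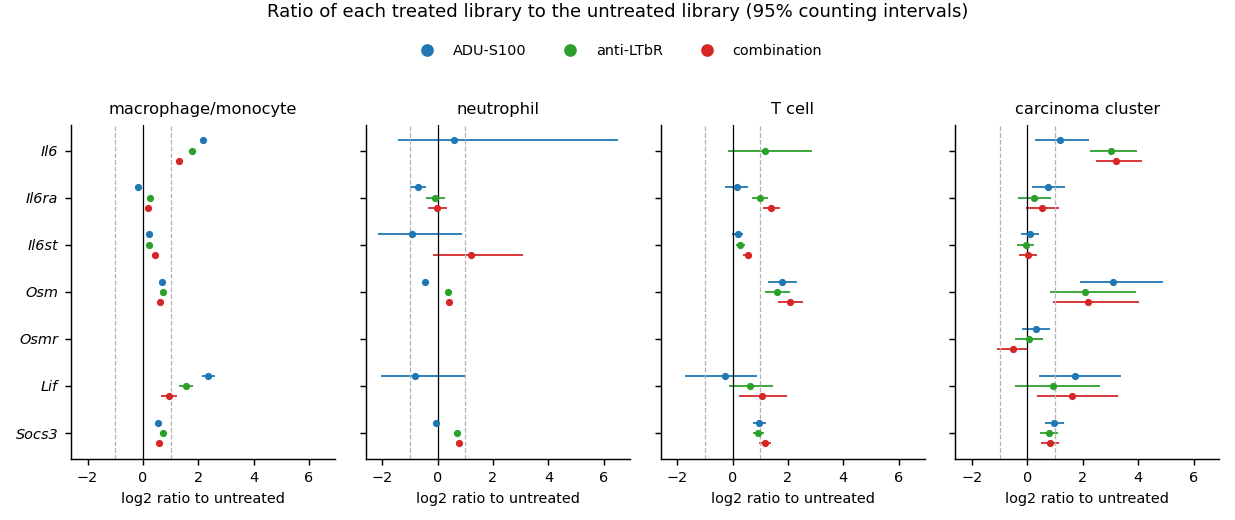
Log2 ratio of each treated library to the untreated library for each member in macrophages and monocytes, neutrophils, T cells and the carcinoma cluster, with exact binomial 95% intervals. In macrophages the points of Il6 and Lif decrease from ADU-S100 to anti-LTβR to the combination (2.18, 1.79 and 1.31 for Il6), whereas those of Osm and Socs3 lie between 0.56 and 0.71.

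Of 54 other genes of the pathway, 45 were measured in macrophages and monocytes, and 6, 3 and 2 were at least 2-fold higher with ADU-S100, anti-LTβR and in the combination, with none lower. Over all genes, 4.96%, 1.44% and 1.61% were past 2-fold in either direction. All of the pathway genes past it belonged to the list of 20 genes known to be induced through STAT3, of which 19 were measured, with median log2 ratios of 0.34, 0.26 and 0.16, where the median of all genes was -0.21, -0.04 and -0.09. All 10 neutrophil markers were detected in the macrophage and monocyte class, and they summed to 1105, 2514, 1837 and 1893 CPM, a shift whose part in these values was not tested. The widest differences were in Saa3, an acute-phase serum amyloid, at 21.9 CPM untreated and 197, 72.6 and 55.4 CPM in the treated libraries, and in Lrg1, a secreted glycoprotein, at 7.68 CPM and 42.3, 17.8 and 17.0 CPM. In neutrophils Saa3 was 52.4, 55.8, 11.4 and 14.5 CPM, below its level in treated macrophages, whereas Lrg1 was 414, 427, 480 and 636 CPM, far above it. In macrophages both took the order of Il6 and Lif, with log2 ratios for Saa3 of 3.17 (3.05 to 3.30), 1.73 (1.60 to 1.86) and 1.34 (1.20 to 1.48). The largest decreases were in the receptor chain Il12rb1, from 9.44 CPM to 5.24, 5.50 and 4.84 CPM, in Pias3, an inhibitor of STAT3, with ADU-S100 (log2 ratio -0.77), in the transcription factor Myc with anti-LTβR (-0.49) and in the cytokine Il27 in the combination (-0.52). The 10 genes of signal transduction and the 6 other inhibitors had none past 2-fold.

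In neutrophils, 33, 26 and 25 pathway genes were measured, and 1, 1 and 0 were at least 2-fold higher, where 6.58%, 2.45% and 1.42% of all genes were past 2-fold in either direction, so that these counts lay near the background. The gene was Lcn2, which encodes the iron-sequestering protein lipocalin-2, at 304 CPM untreated and 686, 919 and 573 CPM. The other largest increases were in Bcl2l1 with ADU-S100 (log2 ratio 0.52), Steap4 with anti-LTβR (0.82) and the inhibitor Cish in the combination (0.92), and the largest decreases given here were in Ptpn6 with ADU-S100 (-0.87) and in Fos with anti-LTβR (-0.56) and in the combination (-0.52).

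Across the 41 pairs of a library and a class with at least 50 cells, the genes whose levels went most closely with Osm included Slc15a3 and Il1rn (Pearson r of log2 levels 0.948 and 0.936). For Socs3 they were Mefv, Msrb1 and Wfdc17 (0.942, 0.930 and 0.924), for Il6 Flrt3, F11r and Rin2 (0.911, 0.856 and 0.845), and for Il6ra Tgfbi, Atf3 and Nfam1 (0.847, 0.819 and 0.806). For Il6st they were Dhx57, Ccdc6 and Ube2o (0.801, 0.798 and 0.798), and for Lif Pgk1, Pfkl and Errfi1 (0.766, 0.761 and 0.760), the first 2 being enzymes of glycolysis. These pairs share 4 libraries and their depths, and the values describe likeness across cell classes more than across treatments.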

How the data were processed

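Live CD45+ cells of 4 libraries were measured by droplet 5′ single-cell RNA sequencing. The deposited matrices hold raw UMI counts per gene and cell that the authors made with Cell Ranger, version 8.0.1 per the file headers, whereas the processing notes name 7.1.0 and mm10. The labels and the study's methods also name different kit versions. Which version made the counts is therefore not settled, and annotation differences between versions could change which reads were assigned to a gene.

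Cells with 300 to 5000 genes and at most 6% mitochondrial UMIs were kept, as in the study. Scrublet's own threshold marked 0 or 1 cell a library, so the cells with the highest scores were removed at 0.4% per 1000 cells. Counts were scaled to 10000 per cell and logged, and 2000 variable genes without the members and pathway genes, 30 components, 20 neighbours and Leiden clustering at resolution 1 gave 30 clusters (scanpy 1.11.5, leidenalg 0.10.2). Clusters were named by at least 3 markers at least 2-fold higher, and the names by leading genes were added after seeing them. Clusters without a name (576 to 843 cells a library) entered only the sums over all leukocytes.

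UMIs were summed per class and library, 0.5 UMI was added for ratios, and intervals came from scipy 1.17.1. The steps were tested on simulated data. Groups were not tested against each other, as each had 1 library. The 7 members, the gene lists and the markers were chosen with earlier results of these data known. Pathway genes named are the 2 widest increases and 2 widest decreases per comparison with at least 200 UMIs, and like genes are the 3 highest correlations among genes with at least 500 UMIs, and a few items that these rules name are not reported here. Promoters were matched by symbol for 6 of 7 members, and that of Osm was not used here.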

Additional observations from a re-analysis of the deposited data

Results flagged for a closer look

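Between the combination and ADU-S100, a gene moved in opposite directions in different classes, and none of these differences between classes was tested. The log2 ratio of Osm was 1.28 in NK cells and 1.32 in the mast cell or basophil cluster, but -1.38 in type 1 conventional dendritic cells, on 34 and 12 UMIs. The log2 ratio of Lif was 1.36 in T cells, on 8 and 28 UMIs, and -1.42 in macrophages and monocytes.

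Barcodes outside the limits on genes and mitochondrial UMIs, of which only those above the gene limit were described above, and for Osmr and Il6 alone, also held more of some members than in the untreated library. They numbered 954 untreated, 1078 with ADU-S100, 593 with anti-LTβR and 624 in the combination, the order of the values below. Il6 in them was 20.6, 53.1, 19.6 and 46.3 CPM, with log2 ratios to the untreated library of 1.37 for ADU-S100 and 1.18 for the combination. Lif was 8.35, 21.8, 11.3 and 2.72 CPM, with a log2 ratio of 1.38 for ADU-S100. The combination was below the untreated library there, on 5 UMIs against 129. Of those 129 UMIs, 93 lay in barcodes above the gene limit with at least 3 carcinoma markers. Osmr was 7.12, 11.9, 12.8 and 14.7 CPM, with a log2 ratio of 1.07 for the combination, on 110 and 27 UMIs.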

How the results depend on the processing

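Of 68 log2 ratios of members within classes, 51 stayed within their counting interval with median-ratio scaling, 60 without doublet removal, 58 at resolution 2, 46 with each cell classed by its own markers, 49 as a mean over cells, 44 after thinning to 1000 UMIs and 67 without the top cell of each library. All 68 did when immunoglobulin genes were left out of the total or 1 UMI was added. Of the ratios past 2-fold, the sign turned in 3 cases: Il6st in neutrophils (-0.38) and Osm in the carcinoma cluster (-0.40), both in the thinned combination, and Il6 in the combination among Plcb1-high cells alone (-0.02), an alternative chosen after seeing the data, like the fixed shares and the other single clusters. Smaller ratios also turned, among them Osmr in the carcinoma cluster with ADU-S100 (-1.48 without clusters), Il6ra in macrophages (0.01) and Socs3 in neutrophils (0.32), the latter pair with ADU-S100 and median-ratio scaling. In macrophages, Il6 kept its direction in the alternatives named first, where ADU-S100 ranged from 1.84 to 2.38, anti-LTβR from 1.43 to 1.90, and their combination from 1.00 to 1.47. The number of members past 2-fold in the macrophage combination was 2 without doublet removal, at resolution 2 and with median-ratio scaling, and 0 when thinned, where Il6 lay just under the 2-fold line (1.00 when rounded). In neutrophils it was 1 with ADU-S100 when thinned, with 1 UMI added and without the top cell, and 0 in the combination without doublet removal, at resolution 2, without clusters and when thinned. In T cells it was 2 with ADU-S100 without clusters, as a mean over cells and with median-ratio scaling, 1 with anti-LTβR without doublet removal, as a mean over cells and when thinned, and 2 in the combination as a mean over cells. In the carcinoma combination it was 5 when thinned. Counts that changed by a smaller factor are not listed here. Behind some of these, Il6ra in T cells with anti-LTβR was 1.04 at resolution 2 and without clusters, and Lif in the T cell combination was 0.41 when thinned. In the carcinoma cluster, Socs3 with ADU-S100 was 1.17 without doublet removal and 1.12 as a mean over cells. Il6ra there was 2.54 with ADU-S100 and 1.91 with anti-LTβR when thinned. Members with at least 200 UMIs, a floor added after seeing the data, gave 0 in the neutrophil combination, 0, 1 and 2 in T cells and 0 in each carcinoma comparison. Some of these counts include lower members: Il6st in neutrophils with ADU-S100 (-1.14 thinned, -1.04 with 1 UMI added), Lif in T cells with ADU-S100 (-1.04 as a mean over cells), and in the carcinoma cluster Osmr in the thinned combination (-1.74) and with ADU-S100 without clusters. Counts also hide changes of member, as Osm with anti-LTβR in the carcinoma cluster fell to 0.22 without the top cell and 0.02 without clusters, where Socs3 rose to 1.07 and 1.49. In T cells, Osm with anti-LTβR fell to 0.68 without doublet removal, 0.39 without clusters and 0.82 as a mean over cells. The genes past 2-fold in the ADU-S100, anti-LTβR and combination libraries numbered 1014, 377 and 408 of macrophages at a floor of 50 UMIs and 5086, 5442 and 5219 with no floor, 1038, 196 and 128 and 7571, 4121 and 3882 in neutrophils, 336, 310 and 301 and 4195, 4844 and 3788 in T cells, and 385, 281 and 334 and 5650, 5418 and 5080 in the carcinoma cluster. The causes were not tested. No paired analysis was possible because each group had 1 library, and for the same reason no replicate could be left out. Depth limits Osmr outside the carcinoma cluster, Il6st in neutrophils and all members in the mast cell or basophil cluster of 11 to 29 cells.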
